A study of Mus musculus with 15 samples.

Results

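Mouse chromosome 18 was followed through its accessible regions in colon cancer organoids grown from liver metastases and from primary tumours. Members are all regions of the deposited count table that lie on chromosome 18 (build mm9), which gave 1534 of 43020 regions. Of these, 1455 passed a filter on low counts and were tested. The chromosome was chosen by its measured values, since its regions were lower in metastasis than in primary lines of rounds 2 and 3, so that difference is described here and no p-value is given for it. Calls of single regions in that contrast serve only to pick and list regions. Organoids are 3-dimensional cultures that grow from dissociated epithelial cells. All 15 lines have the labelled genotype AKP and C57Bl6 recipient mice. The labels do not spell out what AKP stands for. Lines from liver metastases came from transplantation rounds 1, 2 and 3 (Met1, Met2 and Met3), and lines from primary tumours from rounds 2 and 3 (Primary2 and Primary3), with 3 lines in each of the 5 groups. In each round organoids were put back into the colon of immunocompetent mice and new lines were derived from the tumours that formed. Which line descended from which, and how many mice stand behind a group, is not stated in the labels. Replicate lines are therefore taken as separate lines, and p-values measure only the spread between them.

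Chromosome 18 of the mouse carries Apc. Its protein is part of the complex that marks β-catenin for destruction, and its loss switches on Wnt signalling in the intestinal epithelium. The same chromosome carries Csnk1a1, a kinase of that complex, and Ctnna1, which links cadherins to the actin skeleton. It also carries Smad2 and Smad4, which relay TGF-β signals, their inhibitor Smad7, and Gata6, an endodermal transcription factor named in the study's title. A list of 25 such genes was looked up by name, and all 25 are on chromosome 18 in RefSeq. The RefSeq table is of build GRCm38.p6 and the regions are of mm9, so no region was assigned to a gene, regions are called by the authors' peak names, and the markers of colon epithelium were not checked.

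The assay, ATAC-seq, uses a transposase that cuts and tags open DNA, and each value is a count of reads in a region. Such counts depend on the number of copies of a stretch of DNA and on the openness of each copy, which cannot be told apart here, nor can a change in all cells and a larger one in some of them. Library totals ran from 285633 to 5916109 counts. The median chromosome 18 region held 4 counts in the shallowest library, Primary3 replicate 2, where 302 regions were at 0, and 90 in the deepest, Primary3 replicate 3. In the other libraries it held between 11 and 41 counts. Chromosome 18 regions resembled those of the other autosomes in width, density and signal. They were 200 to 3704 bp wide with a median of 765.5 bp, against 749 bp on the other autosomes. They lay at 17.5 regions per Mb (17.4 on the other autosomes). Their median signal was 13.2 CPM (counts scaled to a common library size with TMM factors), against 13.6 CPM.

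The share of counts on chromosome 18 was lower in every metastasis line than in every primary line. Of the counts in autosomal regions, chromosome 18 held 3.29%, 3.29% and 3.48% in the Met1 lines, replicates 1 to 3. The Met2 lines held 3.37%, 3.43% and 3.37%, and the Met3 lines 3.36%, 3.47% and 3.41%. The 9 metastasis lines thus stood within a narrow band, from the first round to the last. Primary2 lines held 4.94%, 4.67% and 4.35%, and Primary3 lines 4.39%, 4.30% and 4.5%. The lowest primary line, Primary3 replicate 2, was also the shallowest, and its exact 95% binomial interval ran from 4.23% to 4.38%. That interval, which covers counting error only, does not reach the highest metastasis line, whose interval was 3.46% to 3.5%. In round 2 the mean share was 3.39% ± 0.0371 for metastasis lines and 4.65% ± 0.296 for primary lines (SD, n = 3 lines each). In round 3 it was 3.41% ± 0.0568 for metastasis lines and 4.4% ± 0.101 for primary lines (SD, n = 3 lines each). Primary lines thus held 1.37 times the metastasis share in round 2 and 1.29 times in round 3. Met1 stood at 3.35% ± 0.112 (SD, n = 3).

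**Figure D1:**
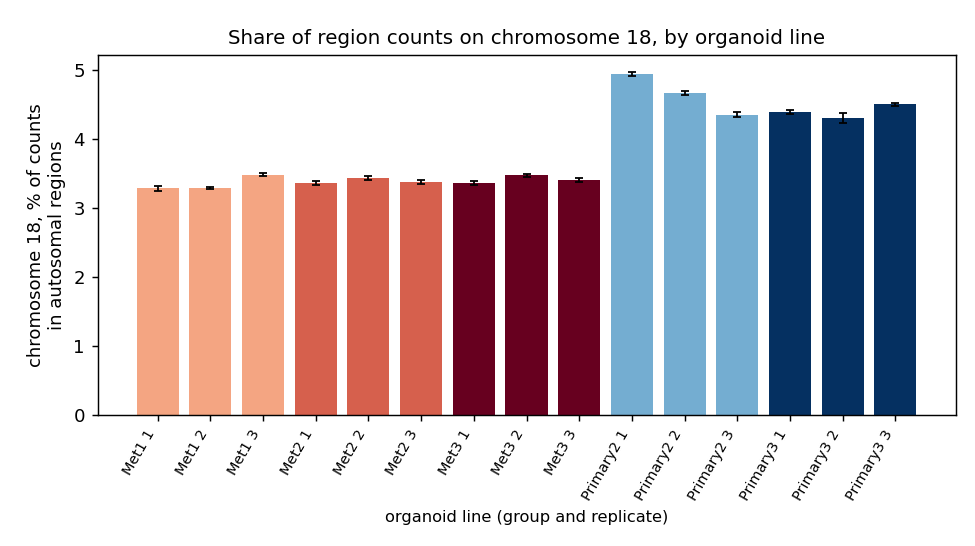
Percent of the counts in autosomal regions that lie on chromosome 18, for each of the 15 organoid lines. Bars are single lines, coloured by group, and error bars are exact 95% binomial intervals. The 9 metastasis lines lie between 3.29% and 3.48%, and the 6 primary lines between 4.30% and 4.94%.

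The level of a chromosome was also taken as a median over its regions, which gives no extra weight to strong regions. For each region the log2 CPM of a line was set against the mean of the 15 lines, and the chromosome's median was read relative to the line's own median over all autosomal regions. On this scale chromosome 18 stood at -0.18, -0.18 and -0.13 in Met1 and at -0.15, -0.16 and -0.18 in Met2. In Met3 it stood at -0.19, -0.13 and -0.16. It stood at 0.38, 0.30 and 0.23 in Primary2 and at 0.22, 0.18 and 0.24 in Primary3. The difference between metastasis and primary lines was -0.46 in round 2 and -0.37 in round 3. Chromosome 18 was the lowest of 20 chromosomes in 5 of the 9 metastasis lines and among the 4 lowest in each of them. It was the highest in 2 of the 6 primary lines and next to the highest in the others.

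Beside the other 18 autosomes, chromosome 18 had the difference of greatest size, at -0.42 over both rounds. The others ran from -0.32 on chromosome 8 to 0.25 on chromosome 1. The 9 metastasis lines and the 6 primary lines were separated by a gap of 0.30 on chromosome 18. On 7 of the other 18 autosomes the lines also did not overlap, with gaps of up to 0.13. The metastasis lines were closer together on chromosome 18 than on any other autosome. Their range was 0.07, where the other autosomes had ranges from 0.08 to 0.81 with a median of 0.15. The primary lines were not unusually close, with a range of 0.20 against a median of 0.13. Chromosome 8, the other autosome on which metastasis lines were much lower, differed by -0.25 in round 2 and -0.39 in round 3. These values describe the contrast for which the chromosome was chosen and are given with no test.

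**Figure D2:**
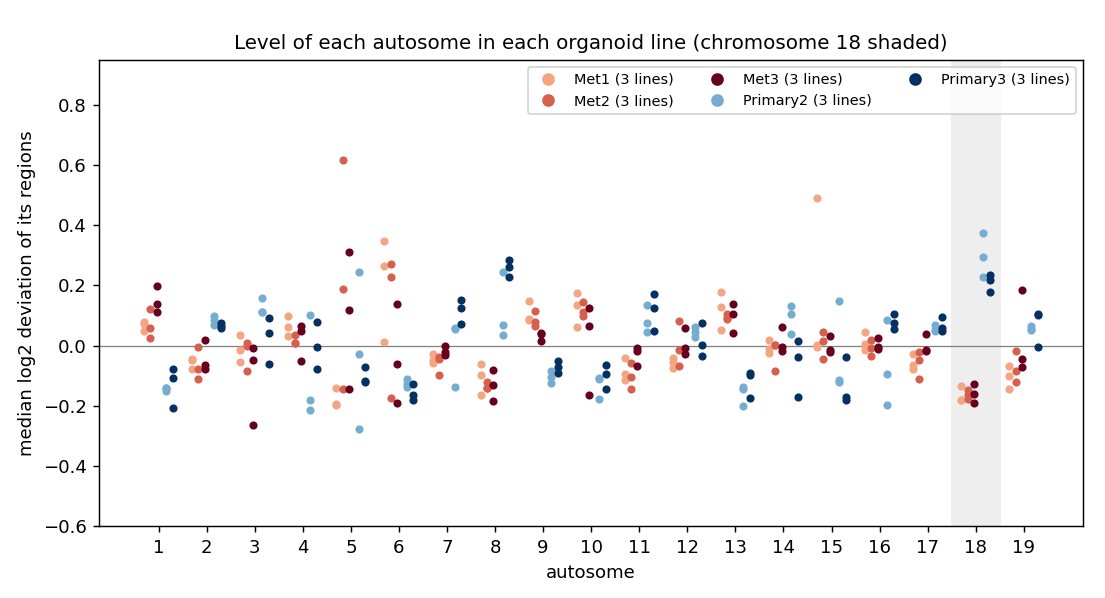
Median log2 deviation of the regions of each autosome, relative to the line's own autosomal median, in each of the 15 lines (points, coloured by group). On chromosome 18, shaded, the 9 metastasis lines span 0.07 and lie 0.30 below the lowest primary line.

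Whether the level of chromosome 18 moved along the transplantation series was tested within each origin, a question that did not enter the choice of the chromosome. Among metastasis lines, Met2 and Met3 together differed from Met1 by 0.004 on the log2 scale (2-sided exact permutation test, p = 0.81, adjusted p = 0.952 over 20 chromosomes). Met3 differed from Met2 by 0.003 (exact permutation p = 0.9, adjusted p = 1, smallest possible p 0.1). The sign of both differences turned under some alternatives, and they stayed between -0.041 and 0.034. No shift of chromosome 18 between metastasis rounds was thus detected. The spread between lines of a group bounds what could be seen (SD 0.027 in Met1, 0.014 in Met2 and 0.033 in Met3, n = 3 each). Primary3 stood 0.09 below Primary2 (exact permutation p = 0.2, adjusted p = 0.571, smallest possible p 0.1), with Primary2 replicate 3 at 0.23 inside the range of the Primary3 lines. The metastasis effect was 0.09 smaller in size in round 3 than in round 2 (exact permutation within origins, p = 0.14, adjusted p = 0.656).

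Along the chromosome the metastasis lines were lower in each of 9 windows of 10 Mb, but by different amounts. Medians over the regions of a window differed by -0.06 in the first window (up to 10 Mb), -0.37 from 10 Mb, -0.29 from 20 Mb and -0.31 from 30 Mb. They differed by -0.83 from 40 Mb, -0.27 from 50 Mb, -0.60 from 60 Mb, -0.52 from 70 Mb and -0.38 from 80 Mb. Beyond 90 Mb only 5 regions were tested, with a difference of -0.93. In 6 of the 9 windows the 9 metastasis lines and the 6 primary lines did not overlap. They overlapped in the first window and in those from 10 and 50 Mb. In the window from 10 Mb Met1 replicate 1 (0.19) and Met2 replicate 1 (0.05) lay within the range of the primary lines (0.04 to 0.29). The difference of the first window was 0.09 with a mean over regions in place of the median. On some other autosomes all windows with at least 20 regions also shared a sign. They were lower on chromosome 8 (14 windows) and higher on chromosomes 5 (16), 6 (15) and 13 (12). Differences of greater size than -0.83 occurred in windows of chromosome 8 (-1.59) and chromosome 17 (0.93). Overlap of the lines was not counted in windows of the other autosomes.

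**Figure D3:**
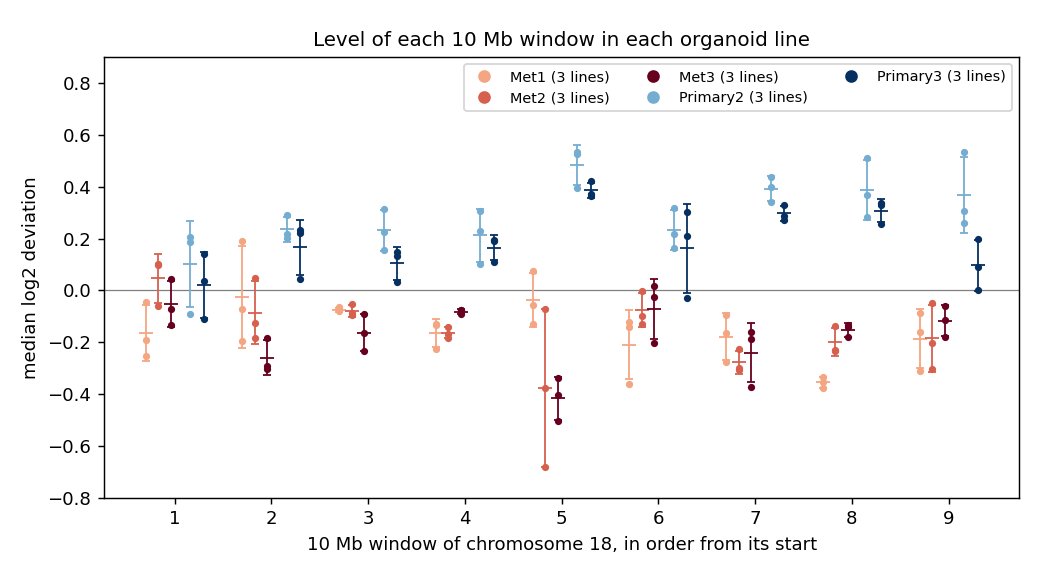
Median log2 deviation of each of the 9 windows of 10 Mb of chromosome 18, in order from its start, with the 3 lines of each group as points and their mean and SD as bars. Groups lie together in window 1 (difference -0.06) and farthest apart in window 5 (-0.83).

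The window from 40 to 50 Mb, with 128 tested regions, stood out in both origins. Among the 9 windows with at least 20 regions, both primary groups had their highest mean there, with lines at 0.53, 0.53 and 0.40 in Primary2 and 0.37, 0.37 and 0.42 in Primary3. Met3 lines were at -0.40, -0.50 and -0.34. Met2 lines were spread out, at -0.07, -0.38 and -0.68, and Met1 lines were near 0, at -0.06, -0.13 and 0.07. Met2 replicate 1 thus stood with the Met1 lines in this window, although its chromosome-wide level was that of the other metastasis lines. The difference of Met2 and Met3 from Met1 was -0.36 (exact permutation p = 0.0476, adjusted p = 0.367 over 252 autosomal windows). From 70 to 80 Mb the order was the reverse. Met1 lines were at -0.36, -0.38 and -0.33, below all later metastasis lines (-0.23, -0.14 and -0.23 in Met2, -0.13, -0.18 and -0.14 in Met3), a difference of 0.18 (exact permutation p = 0.0238, adjusted p = 0.3). The last window, from 80 Mb, had the Primary3 minus Primary2 difference of greatest size, -0.27 (exact permutation p = 0.1, the smallest possible, adjusted p = 0.56). The difference between rounds was 0.34 there (exact permutation p = 0.04, adjusted p = 0.63). None of these window tests passed after adjustment, and these windows were picked after their values were seen.

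In windows of 5 Mb the start of the chromosome had the opposite sign to most of the rest. Up to 5 Mb, 40 tested regions had a median 0.40 higher in metastasis lines, with all 9 metastasis lines between -0.10 and 0.28 and the primary lines between -0.77 and 0.09, so that the ranges overlapped. From 5 to 10 Mb the sign turned, at -0.37 over 51 regions with no overlap between the lines. Of 17 windows of 5 Mb with at least 20 regions, 15 were lower in metastasis lines, and the lines did not overlap in 12, with no such count made on the other autosomes. The exceptions were the first window and the one from 85 Mb, at 0.08 over 23 regions. Among these 17 windows the deepest values lay next to each other, at -0.92 over 70 regions from 40 Mb and -0.79 over 58 from 45 Mb. From 50 Mb the difference was -0.13 over 65 regions, where the lines overlapped, and from 55 Mb it was -0.40 over 83.

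**Figure D4:**
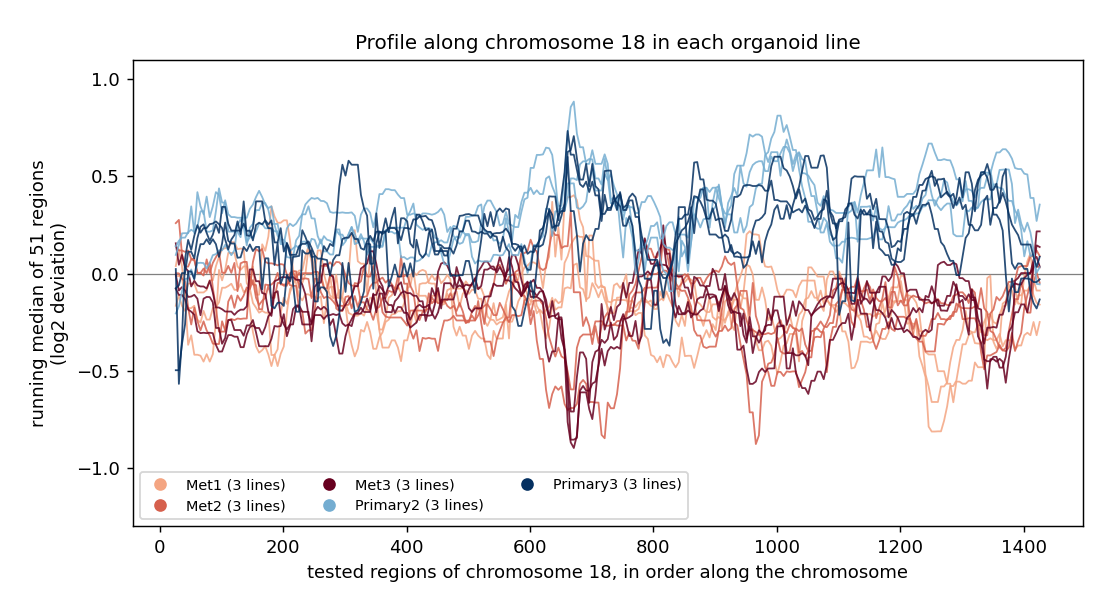
Running median over 51 neighbouring tested regions of the log2 deviation, for each of the 15 lines (coloured by group), against the order of the regions along chromosome 18. Metastasis lines run below primary lines over most of the chromosome and meet them at both ends of the curves and from 50 to 55 Mb (difference -0.13). They part most around the regions of the window from 40 to 50 Mb, where the window medians differ by -0.83. The last point is centred at 84.9 Mb, and the 5 tested regions beyond 90 Mb have a median difference of -0.93.

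The whole distribution of single regions on chromosome 18 lay lower. The median log2 fold change of metastasis against primary lines, over both rounds, was -0.41 on chromosome 18 and 0.05 on the other autosomes, with a similar width of the distribution (interquartile range 0.89 and 0.86). Fold changes were below 0 at 74.6% of chromosome 18 regions, against 46.3% elsewhere. Regions lower in both rounds, each taken from its own fold change, made up 59.3% of chromosome 18 and 30.9% of the other autosomes. By edgeR's quasi-likelihood test at an adjusted p under 0.05, 416 of 1455 regions were called, of which 343 were lower and 73 higher. Over all tested regions 20.2% were called, 8.98% lower and 11.2% higher. Taken alone, round 2 gave 131 lower and 24 higher regions on chromosome 18, where 6.21% of all tested regions were called, 2.77% lower and 3.44% higher. Round 3 gave 145 lower and 58 higher, where 10.2% of all were called, 4.52% lower and 5.64% higher. Each metastasis line was below each primary line of its round at 202 chromosome 18 regions, where this held for 4.99% of all tested regions, and above at 35, where it held for 5.74%. These counts come from the contrast that picked the chromosome. They are a description, as are the named regions and the runs of called regions drawn from them.

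Chromosome 18 regions were split into 4 classes at quartiles of mean signal not drawn from this chromosome alone. From weakest to strongest the classes held 387, 356, 363 and 349 regions. Their median log2 fold change was -0.47, -0.48, -0.43 and -0.35, against 0.17, 0.02, -0.01 and 0.07 on the other autosomes. By width it was -0.41, -0.40, -0.42 and -0.41 from the narrowest to the widest. On the other autosomes the classes by width ran from 0.15 to 0.02. Narrow and wide regions thus had nearly the same median. With each library's median of every chromosome removed before the fit, 315 regions of chromosome 18 were called (21.6%, against 18.7% of all tested regions), of which 155 were higher and 160 lower. Of these, 233 were also among the 416.

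Some regions lay far outside the body. The regions named here were called, had at least the median signal of tested regions, and had every metastasis line of rounds 2 and 3 on 1 side of every primary line of its round. Signal here is edgeR's average log2 CPM, a reading of the rule adopted after the lists were seen. With the plain mean of log2 CPM, used first, 22 of the 30 named would be the same, and peak_45415, peak_45518, peak_46941, peak_47129, peak_47244, peak_45541, peak_47439 and peak_45774 would not be named. The lowest fold change was at peak_45415 (mm9 chromosome 18, 44888369 to 44889383). Its signal was 27.6, 40.7 and 36.0 CPM in Primary2 and 44.2, 41.2 and 40.2 CPM in Primary3. It was 8.5, 4.0 and 1.4 CPM in Met2 and 1.2, 1.5 and 1.3 CPM in Met3, with 7.8, 3.8 and 10.1 CPM in Met1. All 9 metastasis lines were thus low, and the Met3 lines were lowest as a group. The log2 fold change over both rounds was -3.89 ± 0.37 (SE). At peak_45343 (42929735 to 42931137), with a fold change of -3.64 ± 0.36 (SE), the Met1 lines were spread widely, at 11.1, 28.6 and 60.6 CPM. The later metastasis lines held between 2.1 and 12.5 CPM and the primary lines between 52.8 and 90.6 CPM, so Met1 overlapped both.

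The list of 8 low regions depends on the reading of the rule. With the plain mean of log2 CPM, 2 of them would be shared. Named in place of the rest would be peak_43939, peak_45411, peak_45345, peak_45407, peak_46199 and peak_44961. Of these, peak_43939 (11051592 to 11053497) lies in the window from 10 Mb. By the reading used here, the other named regions with low fold changes all lay in the windows from 40, 70 and 80 Mb. They were peak_45393 (44694878 to 44695702, -3.58), peak_45518 (47634391 to 47635742, -3.55), peak_46941 (76234891 to 76235419, -3.47), peak_47129 (78490756 to 78491799, -3.05), peak_47244 (80745554 to 80746041, -2.96) and peak_45541 (49710418 to 49711193, -2.86). At peak_47244 the Met1 lines were as low as later ones, with group means of 4.91 ± 1.14 CPM in Met1, 3.89 ± 0.305 in Met2 and 4.80 ± 0.999 in Met3. The means were 38.2 ± 9.17 CPM in Primary2 and 29.5 ± 9.64 in Primary3 (SD, n = 3 each). At peak_45541 the Met1 mean was in between, at 17.3 ± 6.95 CPM against 4.83 ± 3.05 in Met2 and 39.5 ± 11.5 in Primary2 (SD, n = 3 each). Low regions thus included some that were already low in the first round and some that were not.

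Of the 8 named regions with high fold changes, 5 lay in the first 2 windows of 10 Mb. At peak_43984 (11898933 to 11900566) the signal was 35.6, 34.9 and 33.1 CPM in Met1, 49.2, 65.8 and 31.9 in Met2 and 46.4, 56.0 and 46.2 in Met3. It was 8.0, 6.5 and 3.2 CPM in Primary2 and 3.8, 0.0 and 6.5 in Primary3. No metastasis line came near a primary line, and Met1 was high as well. Its log2 fold change was 3.17 ± 0.29 (SE), 3.58 above the chromosome's median. The fold change of greatest size among the 8 was at peak_47439 (83714727 to 83715319, 3.85 ± 0.43 SE), where the Primary3 lines held 1.4, 0.0 and 1.0 CPM and the Met3 lines between 26.1 and 35 CPM. The others were peak_43660 (3951293 to 3952833, 2.17, and 3.07 without Primary3 replicate 3), peak_43662 (3963464 to 3964625, 2.08), peak_45716 (55782719 to 55784195, 2.02), peak_43631 (3245417 to 3246477, 2.01), peak_45673 (54835112 to 54836248, 1.88) and peak_43990 (11954555 to 11955639, 1.76). Primary3 replicate 2 had 0 counts at 4 of the 8, which at its depth allows up to 9.50 CPM (3 counts).

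Runs of called regions are listed next. A run is taken as 5 or more neighbouring tested regions called in the same direction. Chromosome 18 had 11 runs of lower regions with 70 regions in all, and 1 run of 5 higher regions. Such runs also lay on other autosomes. Chromosomes 8 and 3 each had 7 runs of lower regions, with 47 and 44 regions. Chromosomes 1 and 13 each had 7 runs of higher regions, with 43 and 39 regions. A run of 12 lower regions on chromosome 3 and a run of 11 higher regions on chromosome 15 were longer than any on chromosome 18. On chromosome 18 the run with most regions had 10, over 102.0 kb from 80726630 to 80828616, with a median log2 fold change of -1.55. Between 42869058 and 44972100 there were 3 runs of lower regions, of 8, 8 and 7 regions with medians of -2.55, -2.22 and -3.07. They lie in the window from 40 Mb and include peak_45343, peak_45393 and peak_45415. The run of higher regions spanned 81.7 kb from 3951293 to 4032965, beginning with peak_43660, with a median of 2.08. Runs follow from the same contrast and are a description.

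The 3 regions whose fold change was closest to the chromosome's median were peak_45842 (58037512 to 58039513), peak_43679 (4266252 to 4266736) and peak_43996 (11997582 to 11999309), each at -0.41 with standard errors of 0.34, 0.43 and 0.24. At peak_43996 the means were 22.9 ± 2.49 CPM in Met2 and 24.2 ± 2.02 in Primary2 (SD, n = 3 each). In round 3 the metastasis lines held 28.9, 30.3 and 26.3 CPM and the primary lines 69.2, 44.3 and 29.7 CPM. The lines overlapped in both rounds, and the log2 difference was -0.08 in round 2 and -0.74 in round 3. The widest region, peak_47152 (79390919 to 79394623), held 65.4 ± 6.36 CPM in Met1, 106.9 ± 25.6 in Met2 and 111.4 ± 22.1 in Met3. It held 152.2 ± 17.6 CPM in Primary2 and 152.4 ± 64.2 in Primary3 (SD, n = 3 each). The region with the highest mean signal, peak_46833 (75501687 to 75505065), held 174.9 ± 65.1 CPM in Met1, 275.8 ± 30.9 in Met2 and 304 ± 4.36 in Met3. In Primary2 it held 329.0 ± 33.3 and in Primary3 357.5 ± 40.9 CPM, a metastasis against primary fold change of -0.25 ± 0.15 (SE). Met3 against Met1 was 0.77 ± 0.21 at this region (SE, edgeR adjusted p = 0.0201).

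Single regions did change between metastasis rounds although the chromosome's level did not move detectably. Between Met3 and Met1, edgeR called 156 of 1455 chromosome 18 regions (10.7%), against 9.54% of all tested regions, so the chromosome was near the background. Of these, 94 were higher and 62 lower in Met3, where 5.98% of all tested regions were higher and 3.56% lower. Scaling by total counts gave 73 higher and 74 lower (10.1% called, against 9.26% of all tested regions). Under that scaling the median log2 fold change over all tested regions was -0.17 in place of -0.04. The count was 91 and 82 without Met1 replicates 2 and 3 (6.11% and 5.51%, against 4.94% and 4.73% of all tested regions). It was 76 and 87 without Met3 replicates 1 and 2 (5.09% and 5.84%, against 4.49% and 5.48%). The share of all tested regions thus fell as well. The median fold change was -0.05 on chromosome 18 and -0.04 on the other autosomes.

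Named by the same criteria between Met3 and Met1, peak_43939 (11051592 to 11053497) fell in Met3. Its signal was 25.6, 85.2 and 91.7 CPM in Met1 and 8.4, 4.9 and 4.5 CPM in Met3, lower by -3.55 ± 0.48 on the log2 scale (SE, edgeR adjusted p = 9.32e-05). It was as low in Met2, at 12.5, 5.3 and 8.3 CPM, whereas Primary2 lines held 34.5, 74.3 and 34.4 CPM and Primary3 lines 64.0, 28.5 and 61.7 CPM. Met1 thus overlapped the primary lines here and not the later metastasis lines. The region peak_46165 (63755251 to 63757795) fell from 46.7, 104.0 and 113.2 CPM in Met1 to 3.6, 4.2 and 15.4 in Met3 (log2 fold change -3.59 ± 0.65 SE, edgeR adjusted p = 0.00144). Primary means were between these, at 33.8 ± 16.4 CPM in Primary2 and 15.4 ± 8.38 in Primary3 (SD, n = 3 each). Further decreases were at peak_45343 (-2.98 ± 0.52 SE, edgeR adjusted p = 0.00097) and at peak_45407 (44802477 to 44803884, -2.82 ± 0.54 SE, edgeR adjusted p = 0.00238). At peak_45407 Met2 replicate 1 held 68.3 CPM, above the Met1 lines, where the other Met2 lines held 18.2 and 4.2 CPM.

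In the other direction, peak_43631 at the start of the chromosome rose from 8.9, 2.2 and 8.0 CPM in Met1 to 63.9, 75.3 and 68.1 CPM in Met3 (log2 fold change 3.54 ± 0.47 SE, edgeR adjusted p = 7.42e-05). Met2 lines held 26.3, 44.0 and 72.8 CPM, and primary lines between 6.5 and 21.8 CPM. It is the first region of the chromosome in the table. The largest increase among the named regions was at peak_45774 (57017177 to 57017694), which rose by 4.65 ± 0.80 (SE, edgeR adjusted p = 0.000842) on the log2 scale. Its lines held 2.2, 0.6 and 1.2 CPM in the first metastasis round and 46.4, 26.5 and 15.4 CPM in the last. Both peak_44628 (32507139 to 32507691, 3.27 ± 0.65 SE, edgeR adjusted p = 0.00269) and peak_46503 (68319575 to 68320233, 2.95 ± 0.59 SE, edgeR adjusted p = 0.00291) rose as well. In all 3 of the last regions Met2 replicate 1 stayed at the Met1 level, at 1.3, 3.9 and 5.3 CPM, while the other Met2 lines held 21.3 to 92.9 CPM.

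**Figure D5:**
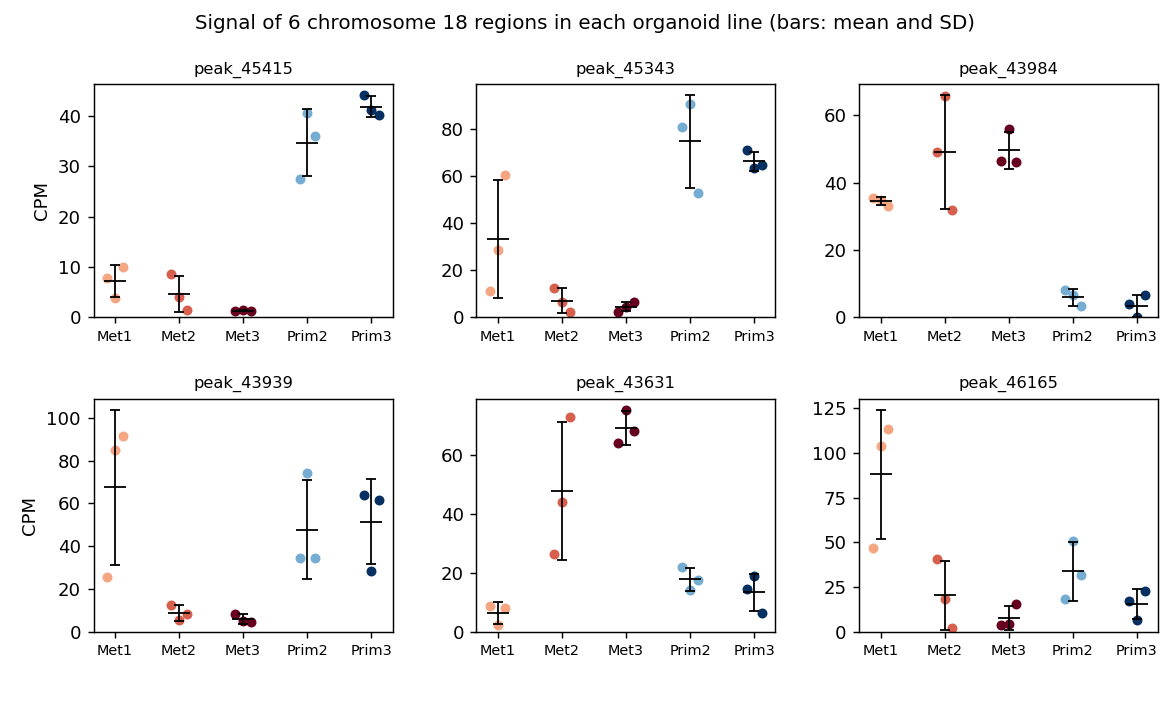
Signal in CPM of 6 named chromosome 18 regions in each of the 15 lines (points, coloured by group), with the mean and SD of each group of 3. At peak_45415 and peak_43984 all 9 metastasis lines lie on 1 side of the primary lines, whereas at peak_43939 the Met1 lines (25.6 to 91.7 CPM) overlap the primary lines and the later metastasis lines do not.

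Between Met2 and Met1, edgeR called 55 chromosome 18 regions (3.78%), against 3.55% of all tested regions, 39 higher and 16 lower in Met2 (2.64% and 0.909% of all tested regions). The count was 22 without Met1 replicate 2 or 3 (1.48% in both fits, against 1.37% and 1.16% of all tested regions). It was 28 without Met2 replicate 3 (1.87% against 1.76%) and 101 without Met2 replicate 1 (6.79% against 6.02%). A fit with Met1 and Met2 alone called 3 (0.243%, against 0.162% of all tested regions). None of the regions named next kept its call in that fit. By the same criteria peak_43939 (-3.02 ± 0.46 SE, edgeR adjusted p = 0.000711) and peak_43631 (3.0 ± 0.47 SE, edgeR adjusted p = 0.000745) were again named. They share the Met1 lines with the comparison above. Also named were peak_47103 (78246275 to 78247373, 2.39 ± 0.36 SE, edgeR adjusted p = 0.000661) and peak_47558 (88298718 to 88299485, 2.12 ± 0.45 SE, edgeR adjusted p = 0.00986). At peak_47103 Met1 stood apart from all other groups, at 15.5 ± 11.6 CPM against 69.6 ± 16.2 in Met2, 90.7 ± 13.1 in Met3, 53.6 ± 12.2 in Primary2 and 71.2 ± 19.5 in Primary3 (SD, n = 3 each). The calls at peak_46165 (-2.13 ± 0.59 SE, edgeR adjusted p = 0.0455) and peak_47197 (80446582 to 80447445, -1.97 ± 0.51 SE, edgeR adjusted p = 0.0326) were lost under several further alternatives. The fold change at peak_47197 was -3.27 without Met2 replicate 2.

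Later groups of the same origin were not told apart region by region. Between Met3 and Met2, edgeR called 0 regions of chromosome 18, with 124 at an unadjusted p under 0.05 (8.52%, against 7.32% of all tested regions). Over all tested regions edgeR called 0% as well. DESeq2 called 1 (0.0687%, against 0.113% of all tested regions). Between Primary3 and Primary2, edgeR also called 0, as over all tested regions (0%), with 116 regions at an unadjusted p under 0.05 (7.97%, against 6.62%). DESeq2 called 1 there (0.0687%, against 0.128%). The median fold change of Primary3 against Primary2 was -0.14 on chromosome 18 and -0.05 on the other autosomes, and 62.2% of chromosome 18 regions were below 0, against 53.9%.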

How the data were processed

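The authors deposited whole-number read counts per region and library, with no normalization. Per the submitters' processing notes, Bowtie, Picard, SAMtools, MACS2, bedtools and the build mm9 were used. Their roles, read shifting and duplicate removal are not given in the sources used here, and such steps could change counts. Region names carry the words ALL_samples, read here as 1 set of regions called over all libraries. Groups came from the sample titles.

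The filterByExpr function (minimum count 10, minimum total 15) left 39952 regions. The edgeR 4.0.16 quasi-likelihood fit (R 4.3.3, limma 3.58.1) used TMM, 5 group means and all 15 libraries, with Benjamini-Hochberg adjustment over all tested regions. Standard errors are the size of the fold change over the square root of F. Chromosome levels used log2 CPM with a prior count of 2, with scipy 1.17.1, pandas 2.3.3 and numpy 2.4.6 under Python 3.11.15. DESeq2 1.42.0 was an alternative. Scripts were tested on simulated data. No sequence of this chromosome is shown.

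Regions were named if called, with signal not under the median of all tested regions and lines not overlapping between groups. Up to 8 per direction were taken for metastasis against primary, 4 for Met3 against Met1 and 3 for each other contrast. The widest region, the strongest and the 3 closest to the median were added. The rule says mean log2 CPM. The plain mean was used first, and edgeR's average log2 CPM replaced it after the first lists were seen, which changed 8 of 30 names. Window tests and the 6 regions plotted were also chosen after values were seen. Members and lists were chosen with earlier results of these data known.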

Additional observations from a re-analysis of the deposited data

Results flagged for a closer look

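Lines were compared within an origin, over the 9 metastasis and the 6 primary lines, on chromosome 18 as a whole and in each 10 Mb window, which gave 20 sets. In 1 set a line was far from the others, where chance gives about 1 in 20. In the window from 10 to 20 Mb, Primary3 replicate 1 stood at 0.0445 on the log2 scale, and the other 5 primary lines between 0.20 and 0.29.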

How the results depend on the processing

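The metastasis difference of chromosome 18 (-0.42) ran from -0.44 to -0.38 under alternatives and from -0.44 to -0.40 with 1 line left out. The share difference (-1.12 percentage points) ran from -1.15 to -1.11, and from -1.20 to -1.05. Met2 and Met3 against Met1 changed sign with a mean over regions (-0.041), the other autosomes' median as reference (-0.00251) and without the 2 shallowest libraries (-0.00527), and ran from -0.010 to 0.018 with 1 line left out. Met3 against Met2 changed sign with the first 2 of these (-0.00666 and -0.012) and ran from -0.012 to 0.019 with 1 line left out. The cause was not tested, and no setting brought these 2 differences past the threshold. Primary3 against Primary2 ran from -0.12 to -0.04 and the difference between rounds from 0.05 to 0.13 with 1 line left out, and from -0.21 to -0.05 and 0.03 to 0.21 under other alternatives. With 1 line left out 9 of 9 windows stayed lower. Of 17 windows of 5 Mb 15 were lower, and the first window reversed with a mean (0.085). Calls for metastasis against primary ran from 326 to 465 with 1 line left out, in fits that called 14.5% and 21.8% of all tested regions. For Met3 against Met1 they ran from 76 to 209 (4.49% and 12.8% of all). For Met2 against Met1 they ran from 22 (1.37% of all without Met1 replicate 2, 1.16% without Met1 replicate 3) to 101 (6.02%). For Met3 against Met2 they ran from 0 to 3 (0.131% of all without Met2 replicate 2, 0.109% without Met2 replicate 3). For Primary3 against Primary2 they ran from 0 to 0. Other alternatives gave 315 to 481 for metastasis against primary, in fits that called 18.7% and 21.9% of all tested regions. DESeq2 called 92 regions for Met2 against Met1 (5.06% of all tested regions). It called 1 for Met3 against Met2 (0.113% of all) and 1 for Primary3 against Primary2 (0.128% of all). With no other groups in the fit, Met2 against Met1 gave 3 (0.162% of all) and Primary3 against Primary2 gave 1 (0.102% of all). Of 713 alternative values of named regions 690 kept direction and call, and 23 lost the call, all in Met2 against Met1. No clear pairing was seen between lines that share a replicate number (correlations of deviations -0.21 to 0.16, over 0.1 in 2 of 30 pairs). No correlations between lines of different number are given beside these. With the replicate number as a block, 383 regions were called for metastasis against primary (26.3%, against 18.2% of all tested regions), 124 for Met3 against Met1 (8.52% against 8.22%, near the background) and 42 for Met2 against Met1 (2.89% against 2.67%, likewise), and the chromosome differences stayed at -0.42, 0.004, 0.003, -0.09 and 0.09. The shallowest library limits regions of low signal.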

Other observations

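Neighbouring regions of chromosome 18 had like fold changes. The chromosome's own median was removed first, which cannot alter a rank correlation within chromosome 18. Fold changes of metastasis against primary lines at neighbours less than 10 kb apart correlated at a Spearman's rho of 0.43 over 540 pairs, against 0.39 on the other autosomes. For neighbours 10 to 50 kb apart rho was 0.34 over 577 pairs, against 0.25, and beyond 50 kb 0.27 over 337 pairs, against 0.19. The correlation is across regions, which share libraries and are not independent replicates, and is given as a description. The widest stretch between neighbouring regions of the table on this chromosome was 2273 kb, from the end of peak_46623 at 70804769 to the start of peak_46632 at 73078122.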
